A study of Mus musculus with 4 samples.

Results

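The numbered Zfp genes, those whose symbol is Zfp followed only by digits, were compared between primary squamous cell carcinomas of mice with and without a knockout of Kdm4a. The rule on symbols found 283 genes among the 14159 in the expression table. Zfp36, which encodes an RNA-binding protein of another zinc finger class, was left out by the same rule. The rule used no measured value. RNA sequencing had been done on 2 control libraries and 2 knockout libraries, named knockout 1 and knockout 2, and the control libraries are called control a and control b because both columns carry one name. The genotype label reads control or KDM4A knockout, and the treatment text, which describes an inducible knockout, is the same for all 4 libraries. The allele, the inducing agent, the driver of the induction and the age of the mice are not stated. Levels are FPKM, fragments per kilobase of transcript scaled to the mapped fragments of the library, so levels can be compared between genes.

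Most Zfp genes encode DNA-binding proteins built from repeated fingers of the C2H2 class, in which a pair of cysteines and a pair of histidines hold a zinc ion. Many carry a KRAB box, a short domain that binds the corepressor TRIM28. TRIM28 brings SETDB1, which methylates lysine 9 of histone H3, together with other silencing factors, and in this way KRAB zinc finger proteins silence retroelements and keep imprints. KDM4A, the product of Kdm4a, removes methyl groups from lysines 9 and 36 of histone H3. KRAB zinc finger genes lie in clusters of related copies, and their own bodies are known to carry methylated lysine 9.

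Most numbered Zfp genes that passed the test were lower in the knockout. Of the 283 genes, 233 passed a filter of 1 FPKM or more in 2 or more libraries and were tested, and 29 of them were higher and 107 lower in the knockout at an adjusted p under 0.05 (limma on log2(FPKM + 1), Benjamini-Hochberg over all genes tested). Among all 12046 genes tested, 63.9% were called, which splits into 30.1% higher and 33.8% lower. Among the tested members the shares were 12.4% higher and 45.9% lower. The median log2 fold change of the tested members was -0.31, with quartiles of -0.69 and 0.06, against a median of -0.03 over all tested genes. A log2 fold change of at least 1 was reached by 7 called members upward, where the share over all tested genes was 6.82%, and by 32 downward, where it was 10.2%. Summed over the 283 genes, the level was 1843 FPKM in control a, 1836 in control b, 1566 in knockout 1 and 1406 in knockout 2. Both knockout sums lay below both control sums. These sums were 0.302%, 0.293%, 0.264% and 0.233% of all FPKM in the same order.

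**Figure D1:**
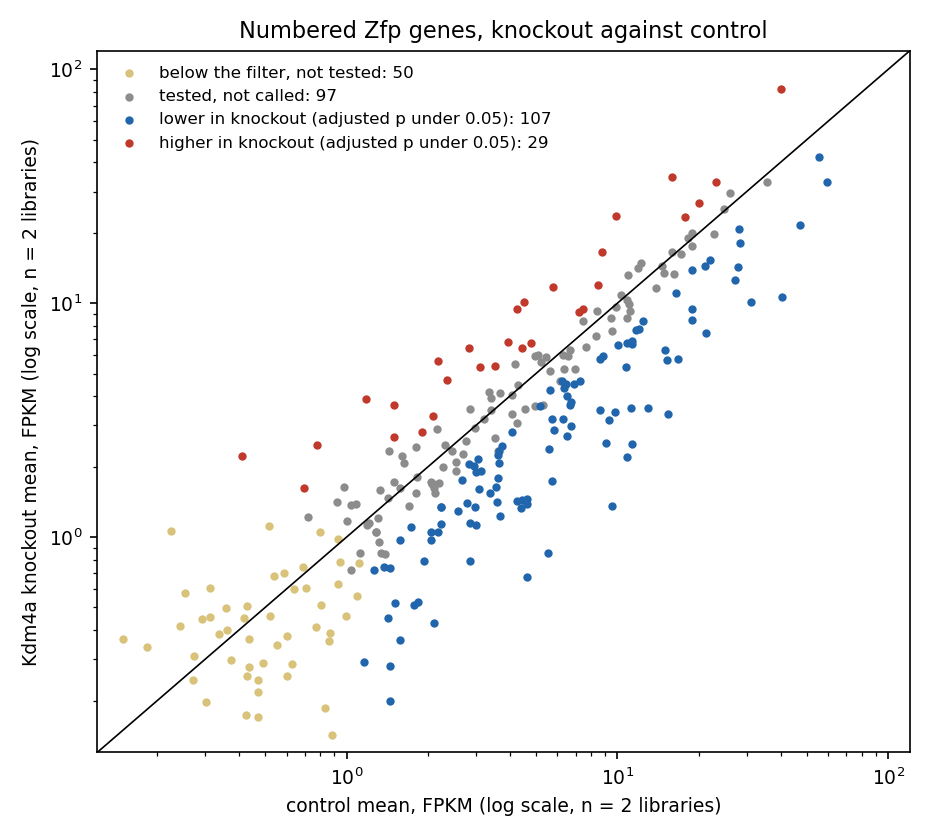
Mean FPKM of each of the 283 numbered Zfp genes in control (horizontal axis) and Kdm4a knockout (vertical axis), both on log scales and each the mean of 2 libraries. The black line marks equal levels, colours mark the call, and the 107 genes called lower outnumber the 29 called higher.

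The targeted gene was lower in the knockout but still detected, with a knockout mean 0.52 times the control mean. A call of lower was made for 33.8% of all tested genes. Kdm4a stood at 29.6 and 27.7 FPKM in control against 14.9 and 14.7 in knockout, a log2 fold change of -0.91 (SE 0.07, adjusted p = 0.000774, limma). Markers of several cell types also differed between the genotypes, where 30.1% of all tested genes were higher and 33.8% lower. Of 12 keratinocyte markers, 8 were lower and none higher in the knockout, and their summed level ranged from 9780 to 9989 FPKM in control and from 5556 to 5702 in knockout. All 7 T cell markers measured and all 5 B cell markers were higher, as were 4 of 6 macrophage markers, while none of 6 fibroblast and none of 6 skeletal muscle markers were called. Summed T cell markers ranged from 12.9 to 15.2 FPKM in control and from 34.9 to 36.8 in knockout, and B cell markers from 13.0 to 14.2 and from 30.5 to 55.0. Macrophage markers ranged from 520 to 559 FPKM and from 694 to 809, fibroblast markers from 23.1 to 27.1 and from 24.9 to 29.8, and skeletal muscle markers from 242 to 272 and from 243 to 305. All 6 markers of salivary secretory epithelium were higher, with sums of 6.79 and 37.0 FPKM in control and of 4852 and 1079 in knockout 1 and 2, and Dcpp3 of these markers was listed at 0 in control a. In such bulk samples, fewer cells of a type and less RNA per cell cannot be told apart, and the part of cell composition in the results on Zfp genes was not tested. Nothing in the labels ties each library to an animal or tumour of its own, so the p-values cover the spread among these 4 samples alone, and that spread could be technical.

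Promoters are shown first for the 2 largest rises and the 2 largest falls called within 2 chromosomal neighbourhoods. These neighbourhoods, on chromosomes 17 and 7, hold 6 of the 10 largest rises and the 2 largest falls of all members. Zfp820 and Zfp945 lie in a stretch of chromosome 17 where 8 members were higher. Zfp768 and Zfp553 lie in a stretch of chromosome 7 where 8 members were lower. Each window is the 250 bases before the annotated start, from RefSeq on GRCm38.p6, read 5′ to 3′ on the gene's strand. The windows are chr17:21845760-21846009 on the minus strand, chr17:22867135-22867384 on the minus strand, chr7:127345315-127345564 on the minus strand and chr7:127232811-127233060 on the plus strand. Capitals mark matches to the motifs searched, each on both strands. GGGCGG is the motif of SP and KLF factors. CACGTG is an E-box, and TGACGTCA is the motif of CREB and ATF factors. The NF-Y factor is known for the motif CCAAT. Members of the ETS family are known for CCGGAAG. The TATA box was written as TATAAA, and the NRF1 motif and the interferon-stimulated response element were searched too.
Zfp820: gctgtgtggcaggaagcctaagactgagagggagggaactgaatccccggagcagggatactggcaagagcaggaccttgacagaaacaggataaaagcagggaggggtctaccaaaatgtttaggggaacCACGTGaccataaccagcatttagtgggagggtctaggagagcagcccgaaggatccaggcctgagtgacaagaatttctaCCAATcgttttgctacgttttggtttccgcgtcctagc
Zfp945: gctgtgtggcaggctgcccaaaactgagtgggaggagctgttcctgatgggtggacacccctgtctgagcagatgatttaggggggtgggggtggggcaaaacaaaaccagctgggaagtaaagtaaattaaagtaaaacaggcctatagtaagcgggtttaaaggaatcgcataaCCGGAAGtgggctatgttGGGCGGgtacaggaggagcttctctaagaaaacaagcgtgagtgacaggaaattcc
Zfp768: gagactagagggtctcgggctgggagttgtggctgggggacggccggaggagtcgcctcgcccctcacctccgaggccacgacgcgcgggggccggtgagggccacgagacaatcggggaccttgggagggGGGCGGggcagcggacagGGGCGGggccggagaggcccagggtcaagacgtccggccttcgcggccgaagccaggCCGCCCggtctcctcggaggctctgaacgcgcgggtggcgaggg
Zfp553: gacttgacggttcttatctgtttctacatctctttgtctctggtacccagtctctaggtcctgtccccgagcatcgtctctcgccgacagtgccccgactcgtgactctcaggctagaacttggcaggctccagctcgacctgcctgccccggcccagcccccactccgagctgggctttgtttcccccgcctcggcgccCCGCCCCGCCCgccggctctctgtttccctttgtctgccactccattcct

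The windows on chromosome 17 held an E-box and a CCAAT box in Zfp820, and an SP and KLF match and an ETS match in Zfp945. Only SP and KLF matches were found in the windows of Zfp768 and Zfp553, which had a GC content of 75.2% and 62.8%, against 52.4% for Zfp820 and 50.8% for Zfp945. A promoter was listed for 232 of the 283 members, and a gene was counted where any of its listed promoters held a motif. GGGCGG occurred in 45.7% of these members and in 35.4% of all 27025 mouse genes with a listed promoter. CCAAT occurred in 49.6% and 37.5%, and CCGGAAG in 17.7% and 7.8%. The interferon-stimulated response element occurred in 1.3% of the members and 3.5% of all these genes. CACGTG occurred in 8.6% of the members and in 6.9% of all. It was found in 6 of 26 members called higher, in 6 of 82 called lower, and in 7 of 18 in the chromosome 17 stretch, whose genes are related copies. TGACGTCA occurred in 4.3% of the members and 1.8% of all, the NRF1 motif in 3.9% and 0.9%, and TATAAA in 8.6% and 14.3%. In the first promoter listed, the median number of CG pairs was 11.5 for the members and 6 for all genes. The GC gap among the 4 printed windows was not seen between members called higher and lower. In the first promoter listed their median GC contents were 55.2% and 55.6%. GGGCGG occurred in 46.2% of members called higher and 47.6% of those called lower. It occurred in 66.7% of the chromosome 17 stretch and 55.6% of that on chromosome 7. A match is a match of letters and does not show that a factor binds.

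Zfp768 fell most. Its level was 9.71 and 9.40 FPKM in control against 1.35 and 1.37 in knockout, a log2 fold change of -2.16 (SE 0.10, adjusted p = 0.000313, limma). Both knockout values lay far below both control values. Zfp768 is the counterpart of human ZNF768, which has been linked to cell proliferation and senescence. Zfp553 stood at 16.3 and 14.5 FPKM in control against 3.49 and 3.25 in knockout, a log2 fold change of -1.91 (SE 0.10). Zfp746, also called PARIS, is a KRAB repressor that is a target of the ubiquitin ligase parkin, and it stood at 10.6 and 11.1 FPKM in control against 2.18 and 2.20 in knockout (log2 fold change -1.89, SE 0.10). In all 3 genes, which were chosen as largest falls, the spread within a group was small beside the gap between groups.

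Zfp740 had the highest control level among the 10 largest falls. It stood at 39.7 and 41.4 FPKM in control against 11.6 and 9.60 in knockout, a log2 fold change of -1.85 (SE 0.11). Zfp266, a KRAB gene, fell from 31.7 and 30.6 FPKM to 10.6 and 9.65 (log2 fold change -1.53, SE 0.08). Zfp217, the counterpart of human ZNF217, an oncogene amplified in breast cancers, fell from 13.0 and 12.8 FPKM to 3.95 and 3.17 (log2 fold change -1.62, SE 0.12). The other 4 of the 10 largest falls were Zfp839 (log2 fold change -1.83), Zfp507 (-1.81), Zfp628 (-1.75) and Zfp236 (-1.54). In each of them both knockout libraries lay below both control libraries, as in 43.5% of all tested genes. Choosing the largest called falls favours such a gap, so it is no separate support. Zfp628 passed the filter only through the control libraries. Zfp839 and Zfp628 were low in knockout, at 0.633 and 1.08 FPKM for Zfp839 and at 0.808 and 0.539 for Zfp628, where the added 1 FPKM makes the fold change smaller than the ratio of the levels. Adjusted p-values of these 10 genes ran from 0.000313 to 0.00144 in limma. Only 2 of the 10, Zfp746 and Zfp266, encode a KRAB box.

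Among the rises, Zfp820 had the largest log2 fold change at 1.20 (SE 0.15, adjusted p = 0.00229, limma). Its level was low throughout, at 0.529 and 0.292 FPKM in control against 2.49 and 1.97 in knockout, so it passed the filter of 1 FPKM only through the libraries in which it was high. Zfp638 stood at 10.6 and 9.22 FPKM in control against 25.1 and 22 in knockout, a log2 fold change of 1.17 (SE 0.11, adjusted p = 0.00107, limma). Zfp638, also called NP220, is a nuclear protein that silences retroviral DNA that has not been integrated. Zfp945 rose from 1.13 and 1.23 FPKM to 3.62 and 4.16, a log2 fold change of 1.17 (SE 0.12). Zfp948 rose from 15.2 and 16.4 FPKM to 37.5 and 31.5, a log2 fold change of 1.07 (SE 0.11). For each of these genes the lowest knockout value exceeded the highest control value, as in 40.4% of all tested genes. Choosing the largest called rises favours this.

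Zfp207, also called BuGZ, binds the spindle checkpoint protein Bub3 and helps chromosomes attach to the spindle. It had the highest mean level of the members over all 4 libraries and in knockout, and the fifth highest in control, after Zfp106, Zfp330, Zfp131 and Zfp740. It stood at 40.8 and 39.7 FPKM in control against 91.3 and 72.9 in knockout, a log2 fold change of 1.001 (SE 0.12, adjusted p = 0.00194, limma). Zfp185, which encodes an actin-associated LIM domain protein and no C2H2 finger, stood at 2.02 and 2.33 FPKM in control against 5.91 and 5.41 in knockout (log2 fold change 1.07, SE 0.11). The remaining 4 of the 10 largest rises were Zfp946 (1.02), Zfp942 (0.98), Zfp873 (0.97) and Zfp944 (0.95), all KRAB genes, and 3 of these 4 lie on chromosome 17. Zfp873 was under 1 FPKM in both control libraries and passed the filter only through the knockout libraries. Of the 10 largest rises, 7 encode a KRAB box.

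**Figure D2:**
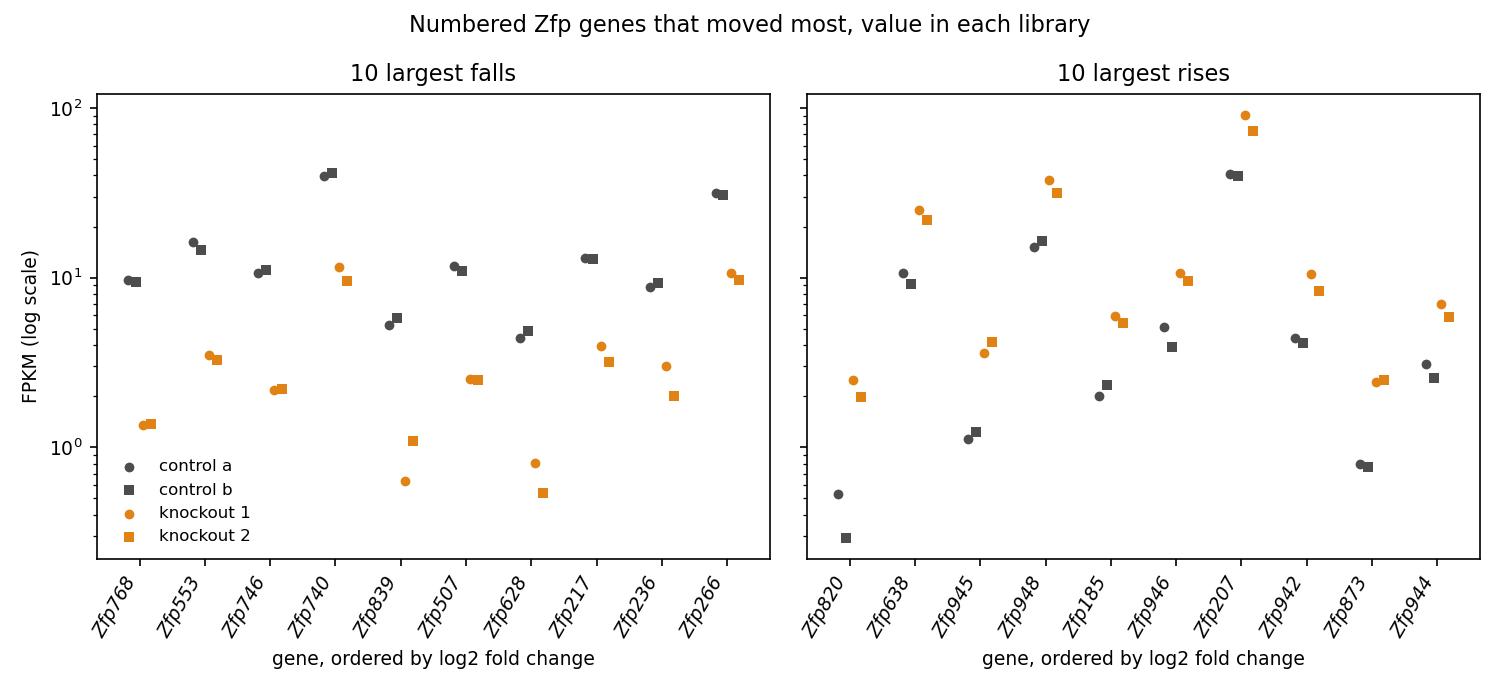
FPKM on a log scale in each of the 4 libraries for the 10 largest falls (left) and the 10 largest rises (right) among called numbered Zfp genes, ordered by log2 fold change. Grey points are control a and b, and orange points are knockout 1 and 2. In all 20 genes the knockout values lie on one side of both control values, which choosing the largest called changes favours.

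The family was divided by the KRAB box. A profile of the KRAB A box, built from 78 members in which a strict pattern occurred, found the box in 160 of the 281 members with an annotated protein. Members with a KRAB box held more C2H2 fingers, with a median of 12 against 7, and lower levels, with a median over tested members of 2.5 against 6.2 FPKM. Of 123 tested KRAB members, 18 were higher (14.6%) and 45 lower (36.6%), with a median log2 fold change of -0.20. Of 110 tested members without the box, 11 were higher (10%) and 62 lower (56.4%), with a median of -0.45. Over all tested genes 30.1% were higher and 33.8% lower, so the share of KRAB members called lower was near that of all genes. Left out in turn, control a and control b brought the KRAB members called lower down to 25 and 24, and the members without the box called higher down to 4 and 6. The difference between these classes was not tested. KRAB members summed to 578 FPKM in both control libraries and to 542 and 500 in knockout 1 and 2. Members without the box summed to 1264 and 1257 FPKM in control and to 1024 and 904 in knockout.

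The number of fingers varied widely among the members. Across 233 tested members, which share the same 4 libraries, the rank correlation of the log2 fold change with the number of C2H2 fingers was 0.01. Median log2 fold changes ran from -0.34 among members with 8 to 11 fingers to -0.18 among members with 4 to 7. No finger of the pattern sought was found in 8 members: Zfp185, Zfp330, Zfp365, Zfp503, Zfp703, Zfp750, Zfp839 and Zfp935. The largest number was 36, in Zfp142, which was lower in the knockout (log2 fold change -0.96).

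Longer transcripts had lower log2 fold changes, both among the numbered Zfp genes and among all genes. Across 233 members the rank correlation of the log2 fold change with the length of the longest annotated transcript was -0.22, and across 11958 tested genes with a length it was -0.26. Members with transcripts of 5000 to 7000 bases had a median log2 fold change of -0.59, and all tested genes of that length had -0.32. Between 2000 and 3000 bases the medians were -0.22 for 56 members and 0.11 for all tested genes. With the trend over length removed in each library, 36 members were higher and 106 lower, and their median was -0.27. The rank correlation of the log2 fold change with the mean level across members was -0.00098.

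**Figure D3:**
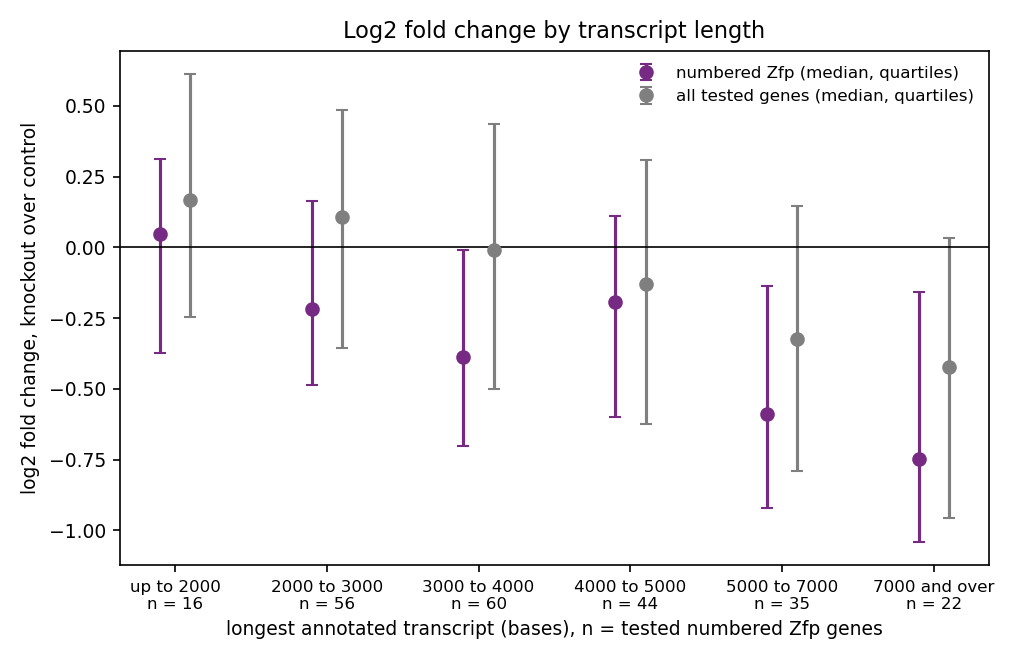
Median log2 fold change, with quartiles as bars, in classes of transcript length in bases, for the numbered Zfp genes tested (purple) and all tested genes (grey). The purple median lies below the grey one in each class, for example -0.59 against -0.32 from 5000 to 7000 bases.

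In 24 neighbourhoods, at least 3 members had starts within 1 Mb of the next, and these neighbourhoods held 163 of the 283 genes. Positions are from GENCODE on GRCm38. Of 22 neighbourhoods with at least 3 tested members, 18 had a median log2 fold change below 0 and 4 above 0. Clustered members had 18 called higher (13.7%) and 52 lower (39.7%) of 131 tested. The others had 11 higher (10.8%) and 55 lower (53.9%) of 102. Over all tested genes the shares were 30.1% and 33.8%.

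The neighbourhood with the most rises, 8, lies at 21 to 23.6 Mb of chromosome 17. It holds 20 members, all with a KRAB box. Of 18 tested, 8 were higher (44.4%, against 30.1% of all tested genes) and 1 lower (5.6%, against 33.8%). The median log2 fold change was 0.40. Their summed level was 96.6 and 99.7 FPKM in control a and b, and 154 and 129 in knockout 1 and 2. Both knockout sums exceeded both control sums. The members called higher were Zfp52, Zfp948, Zfp820, Zfp942, Zfp943, Zfp944, Zfp946 and Zfp945, all at least 0.527 Mb from the first start. Zfp52 had the smallest of these changes (21.9 and 24.3 FPKM in control against 36.9 and 29.1 in knockout, log2 fold change 0.49, adjusted p = 0.0256 in limma), was not called without control a (adjusted p = 0.104 in limma), and its log2 fold change was 0.32 without knockout 1. Zfp160, Zfp677, Zfp54, Zfp51 and Zfp53, which lie before Zfp52, were not called, with log2 fold changes from -0.38 to 0.02. Zfp213, near the other end, fell from 2.96 and 2.75 FPKM to 0.756 and 0.817 (log2 fold change -1.11, SE 0.11), and passed the filter only through the control libraries. Zfp820, and Zfp229, which was not called, passed it only through the knockout libraries. For these members the filter itself selects a difference. Without knockout 1, 4 of the 18 were called lower and the median was 0.26, and with the length trend removed 3 were called lower. Of 7 tested genes between these members that are not numbered Zfp genes, 3 were higher and none lower, beside 30.1% and 33.8% of all tested genes. Related copies can share reads, and among the members that rose the share of 50-base stretches found in transcripts of other genes was between 0.1% for Zfp948 and 10.4% for Zfp944.

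The neighbourhood with the most falls, also 8, lies at 127.2 to 127.9 Mb of chromosome 7. All 10 members were tested, and 8 were lower (80%, against 33.8% of all tested genes) and none higher (against 30.1%). The median log2 fold change was -0.97. Their summed level was 59.7 and 58.9 FPKM in control against 20.8 and 20.02 in knockout. The 4 values fell into 2 pairs with a wide gap between genotypes. Besides Zfp768 and Zfp553, the members that fell were Zfp688 (log2 fold change -1.33), Zfp668 (-1.30), Zfp764 (-1.03), Zfp629 (-0.92), Zfp646 (-0.70) and Zfp747 (-0.63). Zfp764 and Zfp629 passed the filter only through the control libraries. Zfp747 shares 36.9% and Zfp764 27.6% of their 50-base stretches with transcripts of other genes, so reads of these 2 may be split. Zfp771 and Zfp689 were not called, with log2 fold changes of -0.41 (SE 0.21) and -0.19 (SE 0.15). Only 4 of the 10 encode a KRAB box. The other 20 tested genes of this stretch had a median log2 fold change of 0.20. Of them 9 were higher and 5 lower, beside 30.1% and 33.8% of all tested genes. Among these neighbours, Ctf1, a cytokine gene, had a log2 fold change of 1.30, and Setd1a, which encodes a methyltransferase for lysine 4 of histone H3, of -1.18. These 2 genes were chosen after their values were seen, as the ends of the range among called neighbours.

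**Figure D4:**
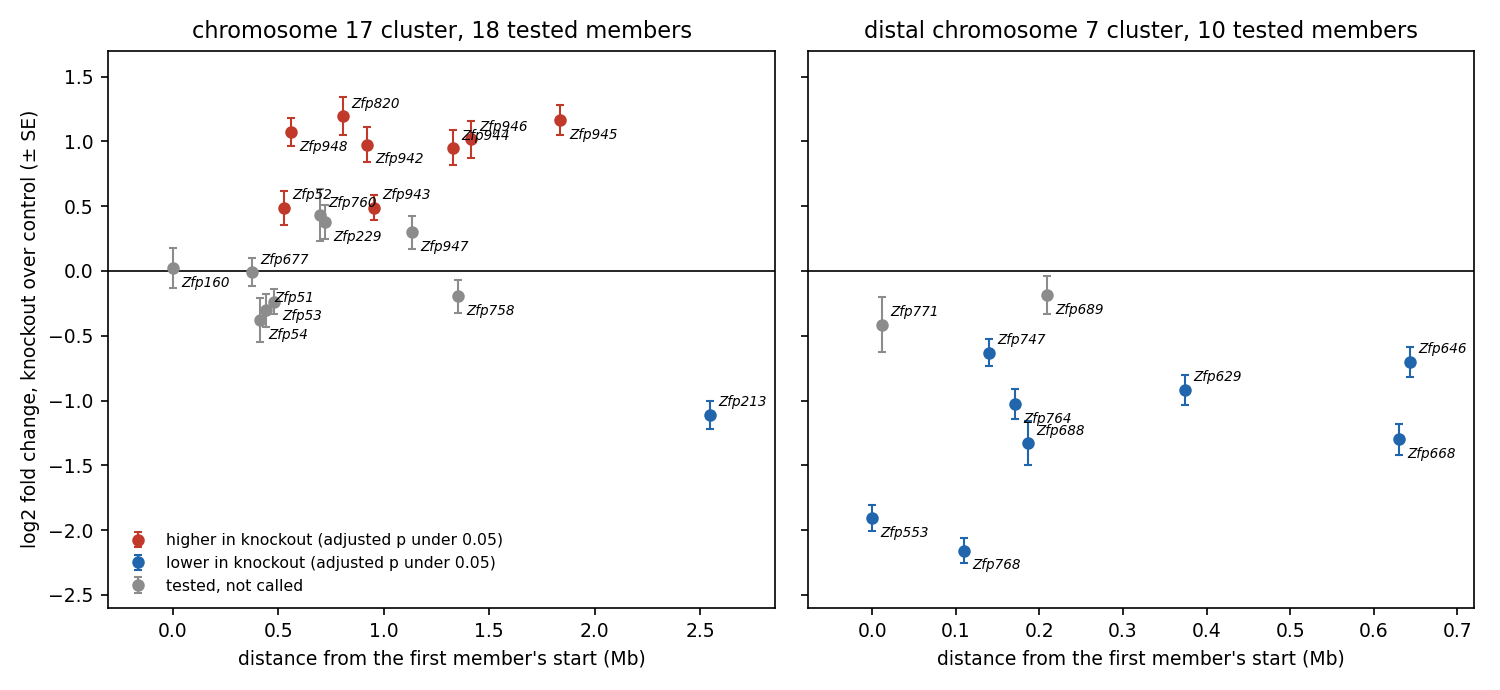
Log2 fold change with its SE for the tested numbered Zfp genes of 2 neighbourhoods, by distance in Mb from the first member's start. On chromosome 17 (left) 8 of 18 tested members were higher and 1 lower, and on chromosome 7 (right) 8 of 10 were lower. Over all tested genes 30.1% were higher and 33.8% lower.

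In each other neighbourhood of at least 5 members except that at 69.2 Mb of chromosome 8, more members were called lower than higher. The share called higher was 25% or less in each of them, where over all tested genes 30.1% were higher and 33.8% lower. The share called lower was near that of all genes in several of them. It was 30.8% at 29.8 Mb, 33.3% at 12.4 Mb and 40% at 27.7 Mb of chromosome 7. At 67.0 Mb of chromosome 13 it was 37.5%. At 4.9 to 5.1 Mb of chromosome 7, 4 of 6 tested members fell (Zfp628, Zfp524, Zfp865 and Zfp784), none of them with a KRAB box. At 47.8 Mb of chromosome 6, 4 of 7 fell, among them Zfp746, and at 19.6 Mb of chromosome 9, 3 of 6 fell, among them Zfp266. At 29.8 to 30.2 Mb of chromosome 7, 13 members were tested, of which Zfp420 and Zfp566 were higher and Zfp84, Zfp383, Zfp568 and Zfp260 lower. At 32.8 Mb of chromosome 17, Zfp101 was higher and 4 of 8 tested members lower (Zfp871, Zfp799, Zfp952 and Zfp763). At 41.6 Mb of chromosome 7, Zfp141 was higher and Zfp788, Zfp715 and Zfp719 were lower. At 67.0 to 67.8 Mb of chromosome 13, where all 16 members are KRAB genes, only 8 reached the level needed for a test, and 3 of them fell (Zfp712, Zfp87 and Zfp748). At 69.2 Mb of chromosome 8, Zfp868 was higher and the other 3 tested members were not called. The remaining 5 such neighbourhoods lie on chromosomes 7 and 15. At 24.1 Mb of chromosome 7, Zfp428 was higher and Zfp180, Zfp574 and Zfp526 were lower of 6 tested. Zfp954 and Zfp772 at 6.1 Mb, Zfp110 at 12.4 Mb and Zfp60 and Zfp59 at 27.7 Mb, all on chromosome 7, were lower. So were Zfp623 and Zfp251 at 75.6 Mb of chromosome 15, and no member of these 4 neighbourhoods was higher. Among the falls of this paragraph, Zfp628, Zfp784, Zfp799, Zfp763, Zfp719 and Zfp712 passed the filter only through the control libraries. For these the filter itself selects a difference. Stretches of 50 bases shared with other genes made up 52.4% of Zfp59, 46% of Zfp524 and 19.1% of Zfp865. They made up 15.7% of Zfp566 and 11.7% of Zfp141, so reads of these genes may be split.

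Among members with known roles, 4 lists were followed. Of the 7 genes known for silencing retroelements or keeping imprints, 1 was higher (14.3%) and 3 lower (42.9%), with a median log2 fold change of -0.38. Over all tested genes the shares were 30.1% and 33.8%, and in a list of 7 the number lower is near its share. Zfp932, a KRAB gene that silences endogenous retroelements, rose from 9.59 and 7.92 FPKM to 16.6 in both knockout libraries (log2 fold change 0.86, SE 0.11). Its transcript shares 45.2% of its 50-base stretches with transcripts of other genes, so reads may be split among them. Zfp57 and Zfp445, which keep imprints, were also lower. Zfp57 stood at 7.58 and 6.95 FPKM in control against 5.29 and 4.04 in knockout, and Zfp445 at 18.8 and 18.9 against 13.5 and 14.2. Their log2 fold changes were -0.55 (adjusted p = 0.0215, limma) and -0.42 (adjusted p = 0.00703, limma). Neither passed when control a or control b was left out, which took the number of lower genes in this list from 3 to 1. Zfp568, a repressor of a placental Igf2 promoter, fell from 2.16 and 1.94 FPKM to 1.08 and 0.874 (log2 fold change -0.63). With the length trend removed, Zfp445 and Zfp568 were not called (log2 fold changes -0.11 and -0.27). Zfp809, which silences proviral DNA, had a log2 fold change of 0.15, Zfp961 of 0.29 and Zfp708 of -0.38, and none of the 3 passed the test. All of the 50-base stretches of Zfp708 occur in transcripts of other genes, so its value is uncertain, and it was called lower without knockout 2 (log2 fold change -0.59, adjusted p = 0.0396, limma). Zfp809 had a log2 fold change of -0.06 with the length trend removed.

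Members known from pluripotent cells or from broad control of transcription had 2 higher (8.3%) and 12 lower (50%) of 24 tested. Their median log2 fold change was -0.27, and the shares over all tested genes were 30.1% and 33.8%. After Zfp217, the largest falls in this list were Zfp652 (17.3 and 16.2 FPKM in control against 6.16 and 5.42 in knockout, log2 fold change -1.39), Zfp668 (-1.30) and Zfp532 (-1.20). Zfp532, Zfp592 and Zfp687 encode proteins of one chromatin complex with ZMYND8, and Zfp592 (-0.12, SE 0.10) and Zfp687 (0.09, SE 0.10) did not pass. With the length trend removed both were called higher, Zfp592 with a change of sign (log2 fold changes 0.26 and 0.31, adjusted p = 0.0395 and 0.0254, limma). Zfp110, also called NRIF, relays signals of a neurotrophin receptor, and fell from 14.8 and 15.2 FPKM to 6.28 and 6.27 (log2 fold change -1.14). Its relative Zfp369 had a log2 fold change of 0.04 (SE 0.14) and was not called. Zfp131 stood at 48.0 and 46.5 FPKM in control against 24.9 and 18.2 in knockout (log2 fold change -1.12), and Zfp148, which binds GC-rich promoters, at 27.03 and 27.2 FPKM and at 14.02 and 10.98 (log2 fold change -1.07). Zfp319 (-1.07), Zfp276 (-0.80), Zfp296 (-0.53), Zfp639 (-0.50) and Zfp292 (-0.33) were lower too. The call on Zfp292 was lost when control a, control b or knockout 2 was left out, and its log2 fold change was 0.15 with the length trend removed. Zfp296 was lost without control a (adjusted p = 0.0571, limma) and without control b (adjusted p = 0.0533, limma). The genes called higher were Zfp410, an activator of Chd4 (18.1 and 17.6 FPKM in control against 24.2 and 22.6 in knockout, log2 fold change 0.38), and Zfp420, or Apak, which restrains p53 (0.620 and 0.776 FPKM, then 1.80 and 1.46, log2 fold change 0.63). Zfp420 passed the filter only through the knockout libraries. Zfp410 was not called without control a or without control b, and Zfp420 was not called without control a (adjusted p = 0.0549, limma), while 6 members of the list were higher with the length trend removed. Zfp281, a factor of embryonic stem cells, Zfp143, an activator at many housekeeping promoters, Zfp462, Zfp384, Zfp335, Zfp64 and Zfp263 did not pass, with log2 fold changes from -0.21 to 0.25. Some of these were called under other settings. Zfp143 was called higher without knockout 2 (log2 fold change 0.43, adjusted p = 0.0299, limma). With the length trend removed, Zfp462 (0.62, adjusted p = 0.00648, limma) and Zfp281 (0.44) were called higher and Zfp64 (-0.28) lower. Zfp281 was also called after quantile normalization (0.34), and Zfp64 without knockout 1 (-0.28). Zfp42 and Zfp161, also of this list, were not analysed here.

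The list of epidermal, mesenchymal and neural regulators had 1 higher (14.3%) and 5 lower (71.4%) of 7 tested. Its median log2 fold change was -0.72, and the shares over all tested genes were 30.1% and 33.8%. Zfp750, a driver of terminal differentiation in epidermis, stood at 3.99 and 4.85 FPKM in control against 1.30 and 1.35 in knockout, a log2 fold change of -1.22 (SE 0.12, adjusted p = 0.00132, limma). Zfp703, whose human counterpart is amplified in luminal breast cancer, fell from 11.8 and 10.6 FPKM to 4.02 and 3.12 (log2 fold change -1.42, SE 0.14). These falls stood beside the lower keratinocyte markers given above, whose part in them was not tested. Zfp516, which promotes brown fat, fell from 19.3 and 18.4 FPKM to 10.8 and 8.12 (log2 fold change -0.94), and Zfp503, a developmental repressor related to Zfp703, from 3.30 and 3.95 FPKM to 1.86 and 1.73 (-0.72). Zfp467, a regulator of fat cell formation, had a log2 fold change of -0.46 and was not called when control b, knockout 1 or knockout 2 was left out. The gene that rose was Zfp185. Zfp488, a regulator of oligodendrocytes, was not called (log2 fold change 0.24). Zfp365 was too low to test, at 0.560 and 0.701 FPKM in control against 0.272 and 0.301 in knockout. Zfp238, Zfp423, Zfp521 and Zfp536 were not analysed here.

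Of 12 tested members that act on RNA, ribosomes, SUMO or ubiquitin, 3 were higher and 4 lower, with a median log2 fold change of -0.16. These counts are near the shares over all tested genes, 30.1% and 33.8%. Besides Zfp638 and Zfp207, the gene called higher was Zfp622, counterpart of a yeast factor of large ribosomal subunit maturation (19.1 and 21.05 FPKM in control against 26.6 and 26.9 in knockout, log2 fold change 0.40). Zfp622 was not called without control a (adjusted p = 0.0954, limma), and 5 members of the list were called higher without knockout 2. Zfp91, an activator of non-canonical NF-kB signalling, fell from 28.1 and 27.5 FPKM to 13.8 and 14.6 (log2 fold change -0.92, SE 0.07). Zfp106, an RNA-binding protein needed in motor neurons, fell from 58.9 and 59.7 FPKM to 37.5 and 28.6 (-0.84, SE 0.13). Zfp330, a nucleolar protein, went from 57.8 and 52.8 FPKM to 42.0 and 42.1 (-0.39) and was not called without control a. Zfp593, counterpart of a yeast ribosome export factor, had a log2 fold change of -0.54 and was not called without control b. Zfp598, which senses collided ribosomes, Zfp451, a SUMO ligase, Zfp326, Zfp346 and Zfp830 did not pass, with log2 fold changes from -0.29 to 0.24. With the length trend removed, Zfp451 was called higher (log2 fold change 0.47 in place of -0.07, adjusted p = 0.00294, limma) and Zfp830 lower (-0.49). Without knockout 2, Zfp326 (0.51) and Zfp598 (0.25) were called higher and Zfp346 (-0.39) lower, and without knockout 1 Zfp830 was called lower (-0.37) and Zfp326 had a log2 fold change of -0.03. Zfp598 was also called higher with median-ratio scaling (0.22) and after quantile normalization (0.21). Zfp706, among the 6 most highly expressed members and on none of these lists, had the smallest log2 fold change of the 6, at 36.0 and 35.3 FPKM in control against 33.0 and 33.2 in knockout (-0.10, SE 0.06, not called). Zfp259 was not analysed here.

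**Figure D5:**
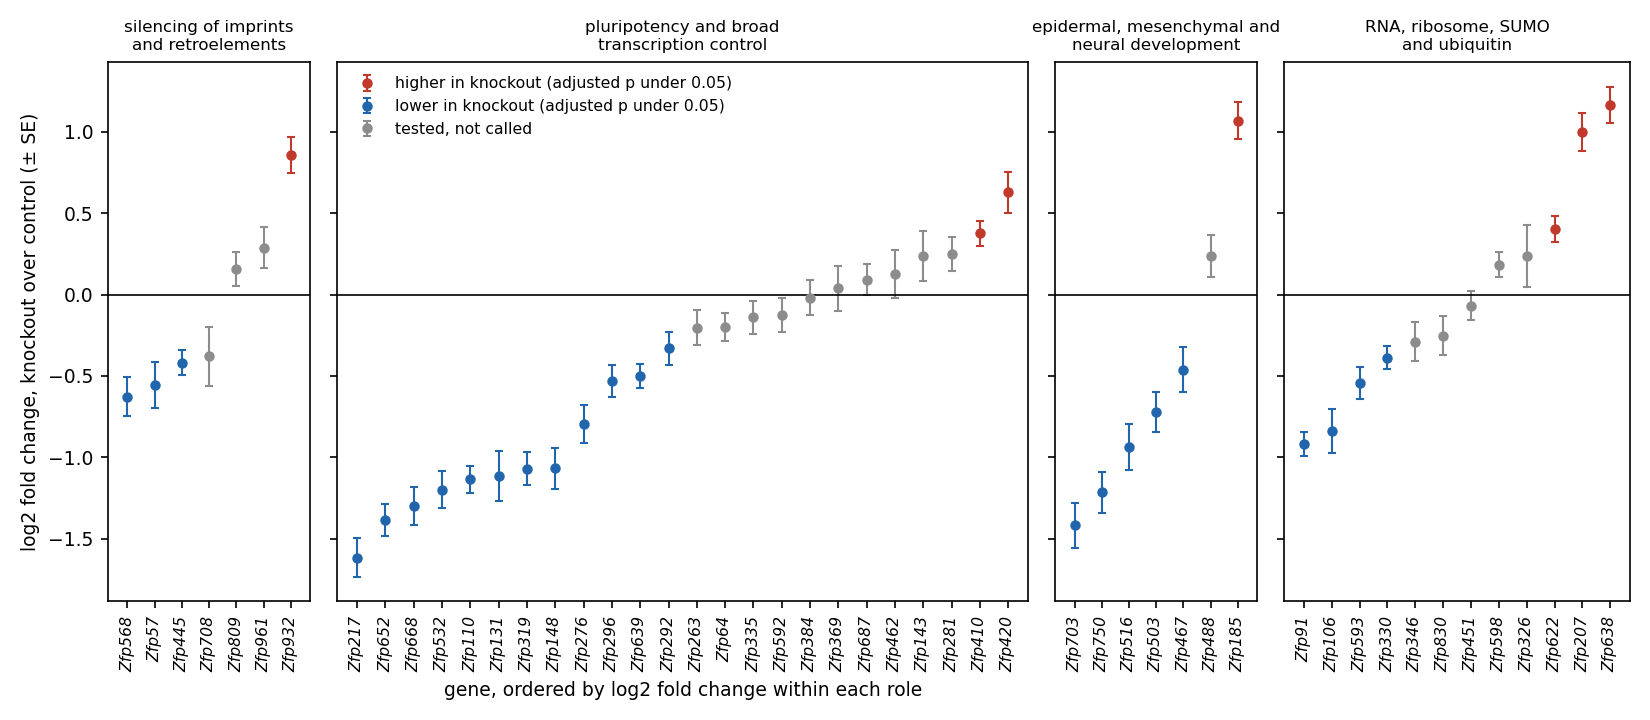
Log2 fold change with its SE of the tested members in 4 lists of known roles, ordered within each list, with colours for the call. The lists hold 1 higher and 3 lower, 2 and 12, 1 and 5, and 3 and 4 members, from left to right. Over all tested genes 30.1% were higher and 33.8% lower.

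The partners of KRAB proteins were also measured. Of 28 genes of the TRIM28 pathway and its silencing machinery, all tested, 7 were higher and 7 lower, with a median log2 fold change of 0.16, where the shares over all tested genes were 30.1% and 33.8%. Trim28, the corepressor that binds the KRAB box, stood at 111 and 113 FPKM in control against 133 and 123 in knockout, and Setdb1, its methyltransferase, at 15.1 and 14.3 and at 17.6 and 16.2. Neither passed (log2 fold changes 0.19 and 0.19, adjusted p = 0.0571 and 0.109, limma), but both passed as higher under some other settings. For Trim28 the adjusted p in limma was 0.0154 without knockout 2, 0.0242 with median-ratio scaling, 0.0441 with a robust fit and 0.0428 with short transcripts left out. For Setdb1 it was 0.0438 without knockout 2, 0.0253 after quantile normalization and 0.00355 with the length trend removed (log2 fold change 0.45). Suv39h1, another methyltransferase for lysine 9, was higher (10.1 and 10.5 FPKM in control against 21.5 and 21.4 in knockout, log2 fold change 0.99, SE 0.08). The histone deacetylase genes Hdac1 (0.71) and Hdac2 (0.63) were also higher. Chd3, a remodeller of the NuRD complex, fell from 21.8 and 21.2 FPKM to 8.91 and 8.27 (log2 fold change -1.23, SE 0.08), and the DNA methyltransferase gene Dnmt3a from 7.93 and 8.48 FPKM to 3.98 and 3.15 (-1.02). Atf7ip, a cofactor of SETDB1, had a log2 fold change of -0.47, and its call was lost without control a and with the length trend removed (-0.06). With that trend removed, the list had 12 higher and 4 lower. The counts were 3 lower without control a, 4 higher without control b and 12 higher without knockout 2.

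Other zinc finger families were also measured. Of 32 tested Zbtb genes, which carry a BTB domain, 2 were higher and 17 lower (median log2 fold change -0.39), and of 14 tested Zscan and Zkscan genes, which carry a SCAN domain, 1 was higher and 10 lower (-0.67). Of 19 tested genes with Zfp, digits and further letters, 6 were higher and 7 lower (-0.25), and 3 were higher without control a or control b and 4 lower without control b. Over all tested genes 30.1% were higher and 33.8% lower. Genes with further letters were near these shares, at 31.6% and 36.8%. The shares lower were 53.1% for Zbtb genes and 71.4% for Zscan and Zkscan genes. No difference between the families was tested.

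Below the filter were 50 members, with means of 0.25 to 0.955 FPKM, of which 37 encode a KRAB box. In 10 of them both knockout libraries lay above both control libraries, and in 20 below. Among the 233 tested members these numbers were 50 above, where the share over all tested genes was 40.4%, and 143 below, where it was 43.5%. A member can pass the filter through one genotype alone, and 19 tested members, 15 of them called lower, passed only through the control libraries, while 4, of which Zfp820, Zfp873 and Zfp420 were called higher, passed only through the knockout libraries. For such members the filter itself selects a difference between the genotypes. No member was listed at 0 in any library.

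The calls rested on few libraries, and 15 of the 29 higher and 63 of the 107 lower calls were made under each of the other settings tried except a filter at 5 FPKM, which removes members. Without control a, 16 members were higher and 73 lower. Without control b, 19 were higher and 71 lower. No member called as reported was called in the opposite direction by any of the 14 settings.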

How the data were processed

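The authors deposited 1 table of FPKM values for 14159 genes and 4 libraries, made with TopHat and Cufflinks on mm9 per the submitters' processing notes; versions, gene annotation and strand setting: not given in the sources used here. Per the labels' protocols, polyadenylated RNA was purified from total RNA and a stranded kit was used. The sheet is named for CPM, but its values were read as FPKM because levels were not higher in longer transcripts (rank correlations of -0.20 to -0.07 over 11958 tested genes). Whole reads could not be recovered and the depth is unknown, so no counting interval is given. Every value column was mapped to a group, and the control columns, which carry one name, to no single sample. The planned test assumed another unit and was applied to FPKM on the same log scale.

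A filter of 1 FPKM or more in 2 or more libraries left 12046 genes, tested on log2(FPKM + 1) with limma 3.58.1 in R 4.3.3 (eBayes with a trend, no covariate), two-sided, with Benjamini-Hochberg adjustment and a threshold of 0.05. The added 1 understates changes of low genes. SE is limma's moderated standard error. The fit was tested on simulated data.

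Lengths, positions and proteins came from GENCODE M21 on GRCm38, not the models the authors used, with 281 members matched by symbol and 2 by an older symbol. A finger was counted where cysteines and histidines followed the C2H2 spacing in the longest annotated protein. The KRAB profile (40 residues) was built and searched with HMMER 3.4 at an E-value limit of 0.001. Shared stretches are 50-base words of the longest transcript that occur in transcripts of another gene, and 41 members shared at least 10% of them. Figures used Python 3.11.15 and matplotlib 3.10.9.

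The members and the lists were chosen with earlier results of these data known. The text names Kdm4a, members on the role lists, the 10 largest rises and falls among called members, the 6 with the highest mean, the 3 smallest p-values in each direction, members of neighbourhoods of at least 5, and Trim28, Setdb1 and the 3 silencing partners with the smallest p in each direction. Alternatives covered the pseudocount, the filter, the scaling, the variance model, the length trend, short transcripts and each library left out.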

Additional observations from a re-analysis of the deposited data

How the results depend on the processing

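With a filter at 5 FPKM, 115 members were tested, of which 19 were higher and 56 lower, and for KRAB members the counts were 10 and 13 with a median log2 fold change of -0.11. The members' median was -0.24 with no filter, -0.39 with a pseudocount of 0.25 and -0.16 with one of 5. For KRAB members it was -0.26 and -0.088 with these pseudocounts and -0.17 with the length trend removed, and for members without the box it was -0.27 with a pseudocount of 5. With the length trend removed, 17 members without the box were higher, and the silencing partners had 12 higher, 4 lower and a median of 0.22, which was 0.10 after quantile normalization. With each library left out in turn, members called higher ranged from 16 to 34 and lower from 71 to 110, KRAB members called lower from 24 to 47 with medians from -0.25 to -0.18, members without the box called higher from 4 to 14, and silencing partners from 4 to 12 higher and from 3 to 10 lower with medians from 0.084 to 0.21. Of the 77 genes named by rule and tested, 10 changed sign in some setting. Of these, only Zfp292 had been called (0.15 with the length trend removed). Zfp451 (0.47) and Zfp592 (0.26) had not, and were called higher with the length trend removed, while Zfp326, Zfp335, Zfp369, Zfp384, Zfp462, Zfp706 and Zfp809 were not called with the other sign. Changes of sign were also those of the median of all genes (0.0058 with median-ratio scaling, 0.0098 after quantile normalization) and of the median of Zfp genes with further letters (0.16 with the filter at 5 FPKM). The causes were not tested. Leaving out members that share at least 10% of their 50-base stretches was an alternative chosen after seeing the data, as were the neighbourhoods under each setting. It stands in for one based on protein identity, which was not run. Of the members left, 24 were higher and 99 lower of 203 tested, with a median of -0.34. Settings that leave out a library leave 1 sample in a group, which is assumed to vary like the other group. No paired analysis was possible because the control columns carry no replicate number. The depth is unknown, so the limits for low members cannot be stated.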
